A study of Rattus norvegicus with 9 samples.

Results

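The genes of serine synthesis, of mitochondrial folate metabolism, and of the ATF4 stress response were examined as a group of 10 genes, chosen by symbol from the 35362 genes of the deposited count table. They were Phgdh, Psat1, Psph, Shmt2, Mthfd2, Asns, Atf4, Ddit3, Trib3, and Chac1. The cells were adipose-derived mesenchymal stem cells (ASCs) of male Sprague Dawley rats aged 6 weeks, grown in high glucose medium with serum and sequenced at passage 3. SASCs came from the subcutaneous fat of the groin, PASCs from the perirenal fat, and EASCs from the epididymal fat, with 3 samples in each group. The labels give no genetic change or treatment, the rats had been fasted before the fat was removed, and the cells were those that adhered to the dish. No source used here says whether the samples of 1 group were taken from different animals, while the protocol speaks of 6 wells a group, so p-values measure only the spread between these samples, which may be technical.

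Serine is made from a glycolytic intermediate by 3 enzymes that act in turn, Phgdh, Psat1, and Psph. Shmt2 and Mthfd2 then pass a carbon unit of serine into the folate pool inside mitochondria, which feeds the synthesis of purines and of thymidylate in dividing cells. Atf4 is a transcription factor whose translation rises when eIF2-alpha is phosphorylated, as in amino acid shortage or stress of the endoplasmic reticulum, and its known targets include the serine enzymes, asparagine synthetase, and the stress genes Ddit3, Trib3, and Chac1.

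All 10 genes were higher in both groups of visceral ASCs than in SASCs. Phgdh had the largest fold in EASCs, 7.02, and Mthfd2 in PASCs, 6.85, and the increase was smallest for Atf4 itself and Ddit3, at 1.88- to 2.20-fold. EASCs and PASCs differed little from each other, with folds of EASCs over PASCs between 0.740 and 1.17. All 10 genes passed the filter on low counts, and their counts lay between 115 and 13160 in any sample.

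Total counts ranged from 17591916 to 30299032 per sample, and 3 counts corresponded to 0.104 to 0.159 CPM (read counts scaled by library size), a limit that covers counting error only. Genes of ribosomal RNA took 10.4% to 15.5% of the summed counts for SASCs, 22.4% to 32.9% for PASCs, and 15.9% to 40.3% for EASCs, but reads of the Rn45s locus enter these sums and the totals more than once. With that locus counted once, the shares were 5.59% to 8.504%, 12.7% to 19.8%, and 8.69% to 25.4%. Counts were scaled by TMM, which leans less on the most abundant genes than total counts do. The 7 markers of mesenchymal stem cells examined, Thy1, Nt5e, Eng, Cd44, Itgb1, Pdgfra, and Pdgfrb, were above 1 CPM on average in every group and summed to 4135 to 4262 CPM for SASCs, 3784 to 3960 CPM for PASCs, and 4958 to 5027 CPM for EASCs. Their levels were not alike between groups, since Pdgfra was a downregulated DEG in both comparisons, where the SASCs had 1543 ± 37.0 CPM, the PASCs 278 ± 17.6 CPM, and the EASCs 235 ± 8.46 CPM (SD, n = 3 each), and Eng and Itgb1 were upregulated DEGs in EASCs. The summed level of 8 leukocyte markers ranged over 26.4 to 32.8 CPM for SASCs, 93.4 to 95.3 CPM for PASCs, and 142 to 154 CPM for EASCs, with Cd3e at 0 in all. The summed level of 8 mesothelial markers was 19.4 to 20.9, 219 to 221, and 184 to 199 CPM in the same order, that of 6 adipocyte markers was 97.5 to 106.6, 22.2 to 24.0, and 11.5 to 12.6 CPM, and that of 6 endothelial markers was 44.3 to 46.0, 11.7 to 14.6, and 30.5 to 33.1 CPM. Markers of smooth muscle and pericytes summed to 96.1 to 100.5, 1152 to 1186, and 2967 to 3001 CPM, and those of Schwann cells and melanocytes to 43.0 to 47.6, 8.57 to 10.8, and 4.69 to 5.68 CPM, with Dct at 0 in all. Single genes moved against their sums. Acta2 made up much of the smooth muscle sum, with means of 55.7 (SASCs), 911 (PASCs), and 2200 (EASCs) CPM. In that list of 6 genes, 5 were upregulated and 1 was a downregulated DEG in both comparisons. Rgs5 fell from 1.25 (SASCs) to 0.0759 (PASCs) and 0.169 (EASCs) CPM. Among 6 endothelial markers, 5 were downregulated DEGs in PASCs and 1 in EASCs. The endothelial marker Tek rose from 2.55 (SASCs) to 8.30 (PASCs) and 8.08 (EASCs) CPM. The part of cells of these types in the results was not tested, and a change in the share of cells of a type cannot be told apart from a change in RNA per cell.

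**Figure D1:**
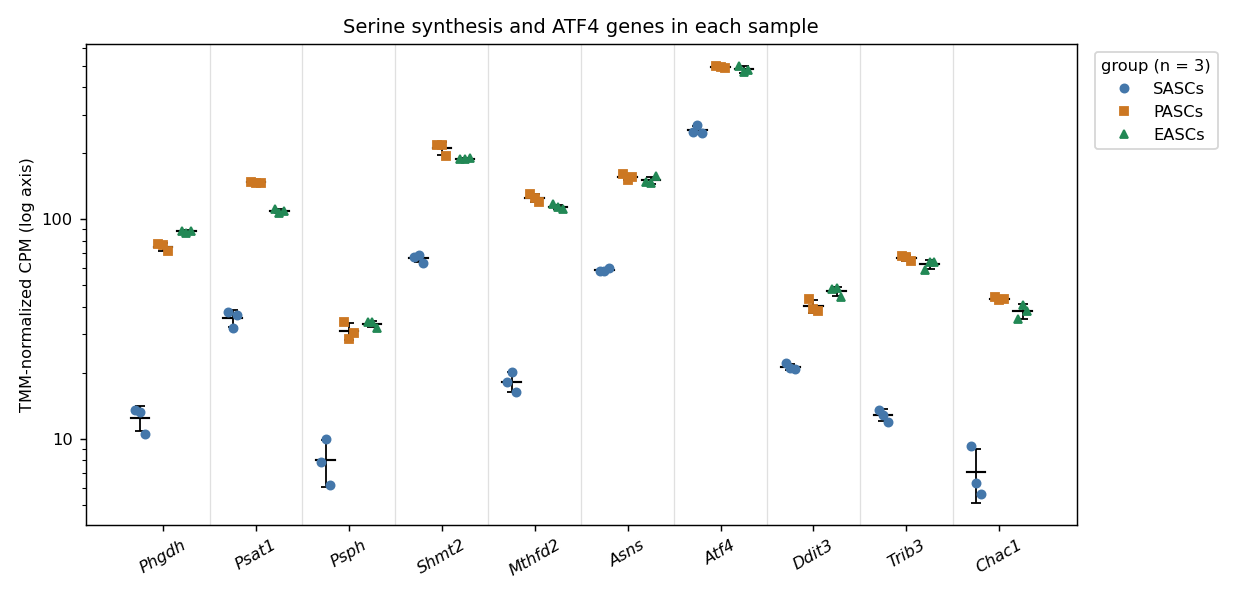
TMM-normalized CPM of the 10 genes in every sample on a log axis, with each point a sample, the horizontal bars the means, and the error bars the SD (n = 3 per group). For every gene the 3 SASCs samples lie below the 6 samples of PASCs and EASCs, and Phgdh runs from 10.6 CPM in the lowest SASCs sample to 88.9 CPM in the highest EASCs sample.

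A gene was counted as a DEG, by the study's thresholds, where edgeR's quasi-likelihood test gave an adjusted p under 0.05 and the fold exceeded 2. The study itself used another test, DEGseq, and reported fewer DEGs in both comparisons, so its calls are not those given here. Of the 10 genes, 9 were upregulated DEGs in EASCs against SASCs, where 13.6% of the 14770 genes tested were, and 8 in PASCs against SASCs, where the share of all genes was 12.0%. The genes outside these counts were Atf4 in EASCs, and Atf4 and Ddit3 in PASCs. Total counts without TMM gave 7 in EASCs, without Asns and Ddit3, and 8 in PASCs. Under that scaling 4775 of the 14770 genes were DEGs of either direction in EASCs and 4431 in PASCs. At any fold change with TMM, all 10 passed the adjusted threshold upward in both comparisons, against 35.5% of all genes in EASCs and 34.6% in PASCs, and 0 passed downward, against 34.3% and 34.6%. In both comparisons the lowest visceral sample exceeded the highest SASCs sample for each of the 10 genes, which held for 36.3% of all genes in EASCs and 35.7% in PASCs. The exact two-sided permutation test gave p = 0.1 for each, the smallest that 3 samples against 3 allow. The median log2 fold change of the 10 genes was 1.83 in EASCs and 2.00 in PASCs, whereas that of all genes tested was 0.01 and -0.01. Both comparisons share the SASCs samples and are not independent of each other.

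Phgdh, which encodes phosphoglycerate dehydrogenase and commits carbon to serine, occupies 200484245 to 200513564 of chromosome 2 of rn6, minus strand. It was at 13.6, 13.2, and 10.6 CPM in SASCs, 77.5, 76.5, and 71.5 CPM in PASCs, and 88.9, 87.0, and 88.7 CPM in EASCs. The 3 groups did not overlap, and SASCs replicate 3 was the lowest of all samples. Against SASCs, the log2 fold change from edgeR was 2.81 for EASCs (SE 0.0768, adjusted p = 4.83e-22) and 2.58 for PASCs (SE 0.0770, adjusted p = 3.96e-21).

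Psat1, the phosphoserine aminotransferase of the next step, occupies 233124089 to 233145941 of chromosome 1, minus strand. Its level was 37.8, 31.9, and 36.8 CPM in SASCs, 148, 147, and 147 CPM in PASCs, and 111, 107, and 109.5 CPM in EASCs, so that PASCs were the highest group for this gene and the 3 groups did not overlap. The log2 difference from SASCs was 1.62 for EASCs (SE 0.0625, adjusted p = 1.25e-18) and 2.05 for PASCs (SE 0.0625, adjusted p = 6.21e-21).

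Psph, the phosphatase that releases free serine, occupies 30514128 to 30526551 of chromosome 12, plus strand, wholly within the span of Mmp17 on the other strand. It had 7.86, 10.0, and 6.15 CPM in SASCs, 34.0, 28.7, and 30.3 CPM in PASCs, and 34.0, 34.1, and 32.0 CPM in EASCs. SASCs were the lowest group, while PASCs and EASCs overlapped. Its log2 fold change came to 2.05 for EASCs (SE 0.113, adjusted p = 3.81e-15) and 1.95 for PASCs (SE 0.113, adjusted p = 1.42e-14). Mmp17 had 31 to 134 counts, against 126 to 888 for Psph, and whether counting used the strand is not given in the sources used here, so that reads of these overlapping genes cannot be told apart. In the ribosomal RNA locus reads were counted for more than 1 gene, since the count of Rn45s was 100.04% to 100.1% of the sum of Rn18s and Rn28s, which lie within it on the same strand.

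**Figure D2:**
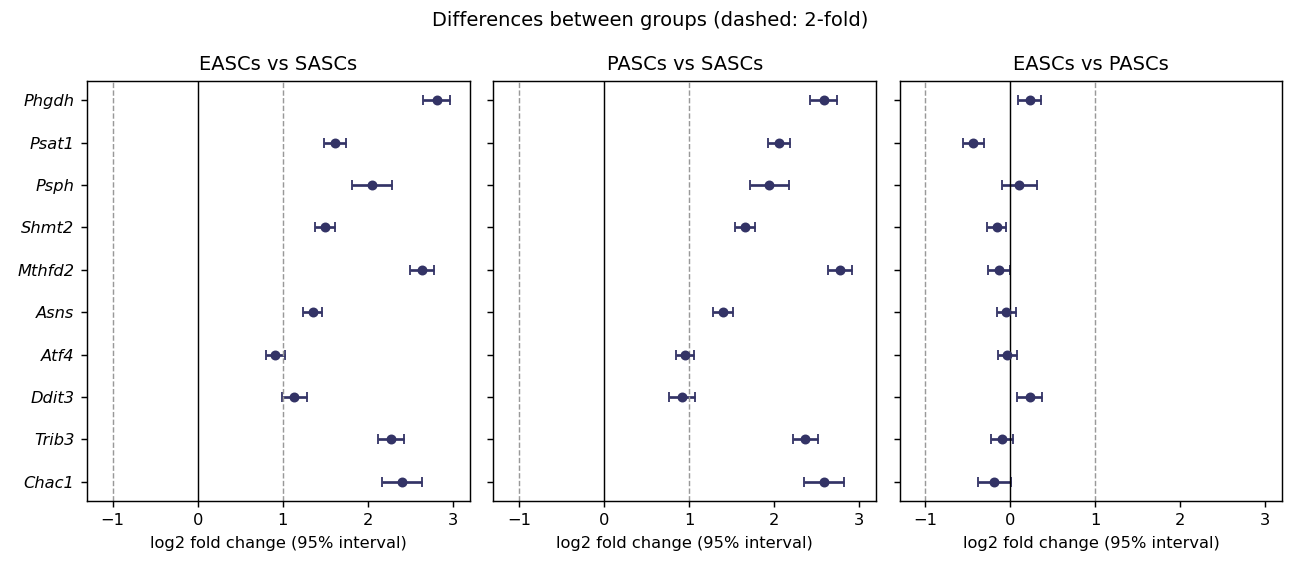
Log2 fold change of the 10 genes in the 3 comparisons from edgeR, with 95% intervals as bars and dashed lines at a fold change of 2. All points of EASCs and PASCs against SASCs lie at 0.91 or above, and those of EASCs against PASCs lie between -0.43 and 0.23.

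Shmt2, the mitochondrial serine hydroxymethyltransferase, occupies 70824719 to 70829824 of chromosome 7, minus strand, and overlaps Ndufa4l2 on the other strand by 299 bases. It was at 67.4, 68.5, and 63.4 CPM in SASCs, 218, 219, and 195 CPM in PASCs, and 188, 188, and 189 CPM in EASCs. Relative to SASCs, the log2 fold change was 1.503 for EASCs (SE 0.0576, adjusted p = 1.04e-18) and 1.66 for PASCs (SE 0.0576, adjusted p = 1.12e-19). Of the 5 enzymes of serine and folate metabolism, Shmt2 was the most abundant per length in all groups, where RPKM is the CPM per kilobase of gene length, at 31.9 ± 1.28 RPKM in SASCs, 101 ± 6.52 RPKM in PASCs, and 90.6 ± 0.437 RPKM in EASCs (SD, n = 3 each).

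Mthfd2, the mitochondrial methylenetetrahydrofolate dehydrogenase, occupies 115004448 to 115015965 of chromosome 4, minus strand, where Prr21 on the other strand had 0 counts. It was at 18.3, 20.2, and 16.3 CPM in SASCs, 131, 125, and 119.7 CPM in PASCs, and 117, 114, and 112 CPM in EASCs. The 3 groups did not overlap, and PASCs were the highest. The log2 fold change of Mthfd2, 2.64 for EASCs (SE 0.0698, adjusted p = 2.34e-22) and 2.78 for PASCs (SE 0.0698, adjusted p = 8.85e-23), was the second largest of the 10 genes in EASCs and the largest in PASCs.

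The other enzymes of the folate pathway were set beside these. Mthfd1l, which releases formate from the mitochondrial pool, was at 3.58 ± 0.210 RPKM in SASCs, 17.3 ± 0.608 RPKM in PASCs, and 13.9 ± 0.524 RPKM in EASCs (SD, n = 3 each), and its log2 fold change was 1.95 for EASCs and 2.27 for PASCs (adjusted p = 9.37e-19 and 2.68e-20). Aldh1l2, the mitochondrial enzyme that oxidizes formyl units, was at 21.0 ± 0.518 RPKM in SASCs, 24.8 ± 0.517 RPKM in PASCs, and 21.4 ± 0.607 RPKM in EASCs (SD, n = 3 each), and its log2 fold change was 0.02 for EASCs and 0.24 for PASCs (adjusted p = 0.737 and 4.57e-04). The cytosolic enzymes Shmt1 and Mthfd1 had smaller values than Shmt2 and Mthfd2, although the differences themselves were not tested. Shmt1 had a 95% interval of the log2 fold change of 0.67 to 1.06 for EASCs and 0.62 to 1.008 for PASCs, and Mthfd1 one of 0.44 to 0.75 and 0.86 to 1.17. These intervals lie below those of Shmt2, 1.39 to 1.62 and 1.54 to 1.78, and of Mthfd2, 2.497 to 2.78 and 2.63 to 2.92.

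**Figure D3:**
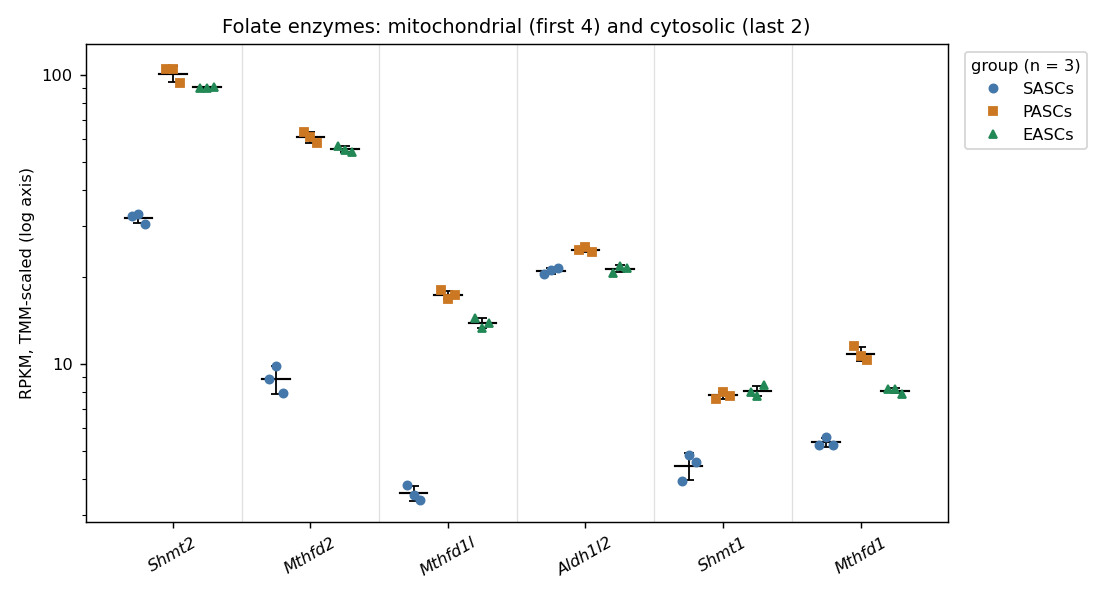
TMM-scaled RPKM of 4 mitochondrial and 2 cytosolic folate enzymes in every sample on a log axis, with each point a sample, the horizontal bars the means, and the error bars the SD (n = 3 per group). The SASCs samples are set apart below the other groups for every enzyme but Aldh1l2, which lies between 21.0 and 24.8 RPKM on average in all 3 groups.

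Of 25 further genes of one-carbon metabolism and serine use, 24 were tested. In EASCs, 4 were upregulated and 3 downregulated DEGs, and in PASCs 5 were upregulated and 4 downregulated, with a median log2 fold change of 0.23 and 0.46. Of all genes tested, 13.6% were upregulated and 14.2% downregulated DEGs in EASCs, and 12.0% and 14.9% in PASCs, against which the counts of this list and of those that follow are to be read. After Aldh1l1, the cytosolic formyltetrahydrofolate dehydrogenase (-2.67 and -2.09 for EASCs and PASCs), the largest log2 fold changes were those of Cth, the cystathionine lyase of cysteine synthesis (2.08 and 2.55), and of Gldc, the glycine decarboxylase (-2.34 and -2.499). Gldc had a mean of 2.02 CPM or less in all groups. Tyms, which makes thymidylate, was an upregulated DEG in both groups, at 1.16 and 1.38, and was named after its values were seen. The direct comparison of EASCs with PASCs had 0 DEGs in this list by edgeR, against 5.19% of all genes upward and 2.20% downward, while 2 of its genes passed upward and 7 downward at any fold change, against 16.1% and 14.5%.

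Asns, which makes asparagine from aspartate and glutamine, occupies 33742876 to 33761100 of chromosome 4, minus strand. It was at 58.2, 58.1, and 60.1 CPM in SASCs, 160.1, 151, and 155 CPM in PASCs, and 147, 147, and 157 CPM in EASCs. Its SASCs samples were the closest to each other of the 10 genes, with a coefficient of variation of 1.92%, and PASCs and EASCs overlapped. Against SASCs, this was a log2 fold change of 1.35 for EASCs (SE 0.0554, adjusted p = 4.60e-18) and 1.40 for PASCs (SE 0.0554, adjusted p = 2.22e-18). Without TMM it was 0.96 for EASCs, under a fold change of 2.

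Atf4 occupies 121480723 to 121482781 of chromosome 7, plus strand. It was at 251, 268, and 247 CPM in SASCs, 499.8, 492, and 489.8 CPM in PASCs, and 497, 467, and 480.2 CPM in EASCs. Per length it was the most abundant of the 10 genes in all groups, at 181 ± 7.82 RPKM in SASCs, 350 ± 3.75 RPKM in PASCs, and 341 ± 10.8 RPKM in EASCs (SD, n = 3 each). On the log2 scale the change of Atf4, 0.91 for EASCs (SE 0.0538, adjusted p = 1.57e-14) and 0.95 for PASCs (SE 0.0538, adjusted p = 7.09e-15), passed the adjusted threshold but stayed under a fold change of 2. The table counts RNA and holds no measure of the translation of Atf4.

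Ddit3, which encodes the transcription factor CHOP, occupies 70578545 to 70585074 of chromosome 7, plus strand. It overlaps Mars by 62 bases and Mbd6 by 1619 bases, both on the other strand, which had 1285 to 3030 and 655 to 933 counts. It was at 22.1, 21.0, and 20.9 CPM in SASCs, 43.3, 39.0, and 38.2 CPM in PASCs, and 48.0, 48.6, and 44.4 CPM in EASCs, and the 3 groups did not overlap. The log2 fold change of Ddit3 was 1.14 for EASCs (SE 0.0738, adjusted p = 1.33e-13) and 0.91 for PASCs (SE 0.0743, adjusted p = 1.77e-11), and it was a DEG only in EASCs of these 2 comparisons, a call that was lost without TMM (0.75). Both 95% intervals, 0.99 to 1.29 and 0.76 to 1.07, include a log2 value of 1.

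Trib3, a pseudokinase that is induced by Atf4 and restrains it, occupies 147814056 to 147819650 of chromosome 3, minus strand. It was at 13.6, 12.9, and 12.0 CPM in SASCs, 67.9, 67.3, and 64.3 CPM in PASCs, and 58.7, 64.2, and 64.0 CPM in EASCs. Its log2 fold change was 2.27 for EASCs (SE 0.0732, adjusted p = 1.98e-20) and 2.37 for PASCs (SE 0.0730, adjusted p = 8.12e-21). Chac1, which degrades glutathione, occupies 111160205 to 111163425 of chromosome 3, plus strand, and was the least abundant of the 10 genes per length in SASCs. It had 9.32, 6.32, and 5.61 CPM in SASCs, 44.1, 43.1, and 43.3 CPM in PASCs, and 35.3, 40.9, and 38.3 CPM in EASCs. SASCs replicate 1 stood above the other two, and the coefficient of variation of Chac1 in SASCs, 27.7%, was the highest of the 10 genes in any group. For Chac1 the log2 fold change was 2.40 for EASCs (SE 0.114, adjusted p = 1.40e-16) and 2.59 for PASCs (SE 0.114, adjusted p = 2.36e-17).

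The promoters of the 10 genes were read for the core of the C/EBP-ATF response element, to which Atf4 and its partners bind, because the genes moved together. The sequences are those of RefSeq on the build GRCr8, from 250 bases before to 50 bases after each start. The letters TGATGNAA, searched on both strands, occurred in 2 of the 10 promoters, those of Chac1 and Trib3, and in 3.98% of 33469 promoters. Among related genes, grouped in the lists described below, 5 of 13 transporter and enzyme genes in the promoter table held them, 4 of 18 regulators, 7 of 17 synthetases, 0 of 18 chaperones, 1 of 18 one-carbon genes, 1 of 8 eIF2 genes, and 0 of 9 proliferation genes. Both members with the letters are shown with Slc7a1, which rose in both groups, and with Fgf21, which holds them but had at most 2 counts in any sample. All are printed in the direction of transcription, with the 8 matched bases in capitals, and those that begin with TT are the complement read on the other strand.
Chac1, chr3:126795938-126795997, plus strand: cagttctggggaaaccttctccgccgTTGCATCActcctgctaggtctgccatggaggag
Trib3, chr3:161275534-161275580, minus strand: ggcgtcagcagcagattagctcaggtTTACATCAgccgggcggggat
Slc7a1, chr12:11664432-11664487, plus strand: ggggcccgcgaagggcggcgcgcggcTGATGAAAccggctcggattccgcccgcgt
Fgf21, chr1:105221486-105221545, minus strand: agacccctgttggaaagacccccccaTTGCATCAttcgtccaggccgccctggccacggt
The match began 167 bases before the start in Chac1, 21 in Trib3, 30 in Slc7a1, and 143 in Fgf21. A match describes letters and does not show binding, and the other 8 promoters lack these letters only within this window.

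Within a group, the order of the 10 genes per length began with Atf4 and Shmt2 in all 3 groups. In SASCs it went on with Asns, Psat1, and Ddit3, the samples of which did not overlap, and from Trib3 through Mthfd2, Psph, and Phgdh to Chac1 each gene overlapped the next. Ddit3, which followed Psat1 in SASCs at 10.5 ± 0.319 RPKM, was the last in PASCs at 19.7 ± 1.35 RPKM and in EASCs at 23.1 ± 1.11 RPKM (SD, n = 3 each). Mthfd2 and Asns overlapped each other in PASCs and EASCs, as did Chac1 and Psph in PASCs and Chac1 and Ddit3 in EASCs.

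The deposited counts were also searched for genes with the most similar pattern over the 9 samples, by Pearson's r of log2(CPM + 1), as a description. For Phgdh these were Odc1, the first enzyme of polyamine synthesis (r = 0.9997), Vasp, an actin regulator (0.999), and Impdh1, an enzyme of guanine nucleotide synthesis (0.999). For Atf4 they were Mthfd2 (0.999), Ghitm (0.998), and Fam132b, described in the table as erythroferrone (0.998). The 9 points fall into 3 groups, so that each r covers differences between the groups as well as within them.

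Between EASCs and PASCs, 0 of the 10 genes were DEGs by edgeR, where 5.19% of all genes were upregulated and 2.20% downregulated DEGs. At any fold change, Phgdh (log2 fold change 0.23, adjusted p = 0.00841) and Ddit3 (0.23, adjusted p = 0.0151) were higher in EASCs, and Psat1 (-0.43, adjusted p = 1.01e-06) and Shmt2 (-0.16, adjusted p = 0.0283) lower, against 16.1% and 14.5% of all genes in the same directions. Thus the first and the second enzyme of serine synthesis differed in opposite directions. For the other 6 genes the 95% intervals of the log2 difference were -0.10 to 0.31 for Psph, -0.26 to -0.01 for Mthfd2, -0.16 to 0.06 for Asns, -0.15 to 0.07 for Atf4, -0.23 to 0.04 for Trib3, and -0.39 to 0.01 for Chac1. Mthfd2 had an unadjusted p of 0.0347 in edgeR's test and an adjusted p of 0.0962. Samples did not overlap for 2 genes that were higher and 5 that were lower in EASCs, against 21.1% and 20.1% of all genes.

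The smaller of these differences depended on single samples and on scaling. Shmt2 did not pass without PASCs replicate 1 (-0.13, adjusted p = 0.115), PASCs replicate 2 (-0.13, adjusted p = 0.146), EASCs replicate 1 (-0.16, adjusted p = 0.0655), EASCs replicate 2 (-0.16, adjusted p = 0.0853), or EASCs replicate 3 (-0.16, adjusted p = 0.0642). Ddit3 did not pass without PASCs replicate 2 (0.20, adjusted p = 0.0753), PASCs replicate 3 (0.19, adjusted p = 0.0667), EASCs replicate 1 (0.21, adjusted p = 0.0520), or EASCs replicate 2 (0.20, adjusted p = 0.0753). Without TMM, the log2 fold changes from edgeR were 0.16 for Phgdh (adjusted p = 0.621), -0.23 for Shmt2 (adjusted p = 0.437), and 0.16 for Ddit3 (adjusted p = 0.620), so that these calls were lost with the direction kept and, for Shmt2, with a larger difference. The difference of Psat1 passed under every alternative, with a highest adjusted p of 0.0150.

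Other known targets of Atf4 included both higher and lower genes. Of 17 genes for amino acid transporters and amino acid enzymes, 16 were tested, and 9 were upregulated DEGs in EASCs and 9 in PASCs, with 0 and 1 downregulated. The median log2 fold change was 1.12 and 1.30. Of these genes, Slc1a4, Cth, and Aldh1l2 also stand in the one-carbon list. Gpt2, an alanine aminotransferase of mitochondria, had a log2 fold change of 2.11 for EASCs and 2.17 for PASCs (adjusted p = 7.67e-17 and 4.02e-17), and Slc7a1, the main carrier of arginine and lysine, of 2.001 for EASCs and 1.998 for PASCs (adjusted p = 8.37e-20 and 9.20e-20). Slc7a3, a related carrier, had 2, 0, and 0 counts in SASCs, while the PASCs samples had 36, 35, and 14 and the EASCs samples 51, 58, and 57, and it was a DEG in both; no fold is given because SASCs were below 3 counts. Slc7a11, the cystine carrier, changed by 0.39 for EASCs and 0.31 for PASCs (adjusted p = 2.88e-04 and 0.00267) on the log2 scale.

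Of 23 genes for regulators and stress outputs 22 were tested, of which 2 were upregulated and 2 downregulated DEGs in EASCs and 3 upregulated and 1 downregulated in PASCs, where the shares of all genes were 13.6% and 14.2% in EASCs and 12.0% and 14.9% in PASCs. The median log2 fold changes were 0.45 and 0.42. Atf3, a stress-induced factor that Atf4 is known to activate, was lower than in SASCs, at -1.07 for EASCs and -1.42 for PASCs (adjusted p = 2.59e-08 and 2.10e-10). Eif4ebp1, the inhibitor of cap-dependent translation, was higher, at 1.32 for EASCs and 1.39 for PASCs (adjusted p = 1.79e-16 and 5.82e-17). Ddit4, an inhibitor of mTORC1, was at 0.89 for EASCs and 1.39 for PASCs (adjusted p = 1.47e-12 and 7.56e-17), and Sesn2, of like function, at 1.14 for EASCs and 0.96 for PASCs (adjusted p = 7.14e-14 and 2.71e-12). Atf5, a relative of Atf4, was at 0.21 for EASCs and 0.40 for PASCs (adjusted p = 0.00153 and 2.79e-07).

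Of the 20 cytosolic aminoacyl-tRNA synthetases, which load amino acids onto tRNA, 19 passed the adjusted threshold upward at any fold change in EASCs and 19 in PASCs, with 0 downward in either, against 35.5% and 34.6% of all genes upward. Dars in EASCs (0.06, adjusted p = 0.469) and Qars in PASCs (0.10, adjusted p = 0.0902), named after their values were seen, did not pass. The medians were 0.63 and 0.70. Without TMM, 6 passed upward in EASCs and 10 in PASCs, with medians of 0.24 and 0.37. That scaling moved the median of all genes to -0.39 and -0.33, and the share of all genes that passed was not computed. With TMM, the DEGs numbered 2 in EASCs and 4 in PASCs. Vars (1.41 and 1.40) and Gars (1.13 and 1.17) were DEGs in both, Cars (0.90 and 1.25) and Nars (0.997 and 1.12) in PASCs.

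**Figure D4:**
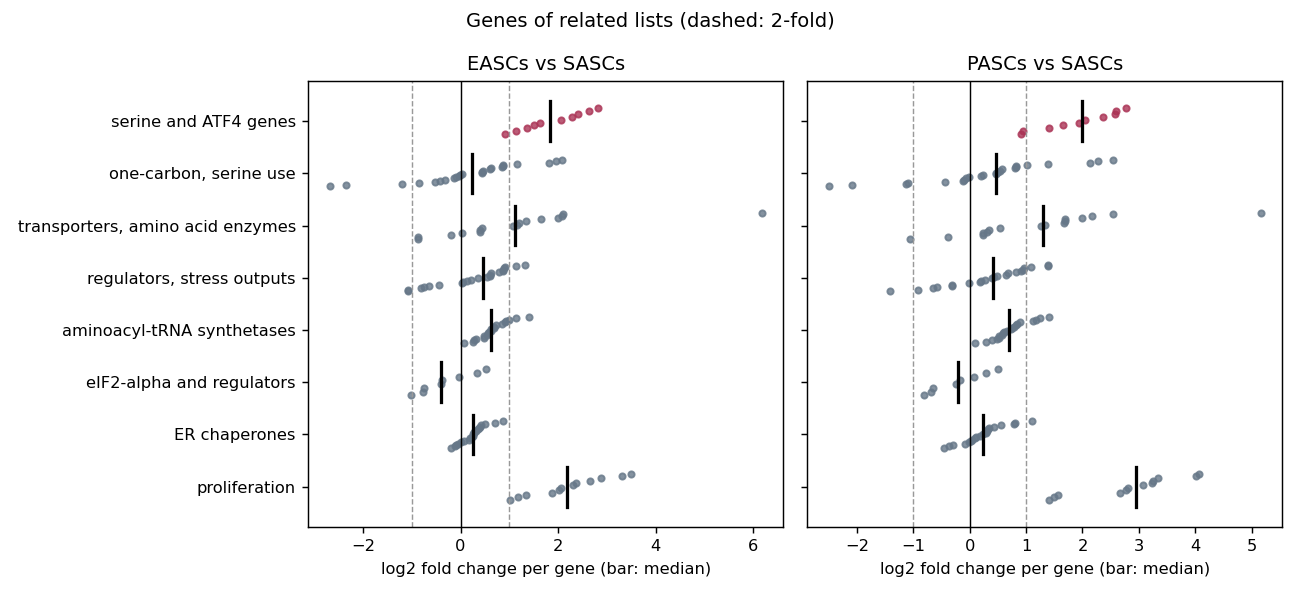
Log2 fold change against SASCs of each gene tested in the 10 genes (red) and in 7 related lists (grey), with the black bars the medians and dashed lines at a fold change of 2. The 10 genes have medians of 1.83 and 2.00, the proliferation genes lie further to the right at 2.19 and 2.94, the genes of eIF2-alpha and its regulators to the left at -0.40 and -0.21, and the outlying point of the transporters is Slc7a3, with almost no counts in SASCs.

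The 4 kinases of eIF2-alpha were lower in both groups than in SASCs. They stand in a list of 8 genes with Eif2s1, which encodes eIF2-alpha, Gcn1l1, an activator of GCN2, and the phosphatase subunits Ppp1r15a and Ppp1r15b. Of the 8, 0 were upregulated DEGs in either comparison by edgeR, Eif2ak4 was a downregulated DEG in EASCs, and in both 2 passed upward at any fold change, against 35.5% and 34.6% of all genes, and 5 downward, against 34.3% and 34.6%. Those upward were Eif2s1 (0.51 and 0.50) and Gcn1l1 (0.34 and 0.30), and the fifth downward, beside the kinases, was Ppp1r15a (-0.75 and -0.66), which also stands among the stress outputs. These 3 genes were named after their values were seen. Without TMM, 0 of the 8 passed upward in either comparison by edgeR, and 6 passed downward in EASCs and 5 in PASCs. The share of all genes passing under that scaling was not computed, and the median of all genes moved to -0.39 and -0.33. Eif2ak4, the kinase GCN2 that senses uncharged tRNA, was at -1.02 for EASCs and -0.69 for PASCs (adjusted p = 4.93e-11 and 5.95e-08). Eif2ak3, the kinase PERK of the endoplasmic reticulum, was at -0.39 for EASCs and -0.24 for PASCs (adjusted p = 2.05e-05 and 0.00306). Eif2ak1 was at -0.40 for EASCs and -0.18 for PASCs (adjusted p = 2.08e-05 and 0.0290), and Eif2ak2 at -0.77 for EASCs and -0.80 for PASCs (adjusted p = 5.41e-09 and 2.28e-09). The activity of these kinases depends on phosphorylation, which was not measured here.

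Chaperones of the endoplasmic reticulum and genes of the unfolded protein response other than Atf4 targets held almost no DEGs. Of 22 genes 21 were tested, with 0 DEGs in EASCs and 1 in PASCs, Sec61b, a subunit of the protein translocation channel (1.10, adjusted p = 3.80e-14). The median log2 fold changes were 0.26 and 0.24. Hspa5, the chaperone BiP, was at 0.31 for EASCs and 0.55 for PASCs (adjusted p = 1.31e-05 and 7.81e-10). At any fold change, 15 genes passed upward and 1 downward in EASCs, against 35.5% and 34.3% of all genes, and 12 and 3 in PASCs, against 34.6% and 34.6%. Without TMM these counts were 1 and 5 in EASCs and 3 and 4 in PASCs, and the shares of all genes that passed were not computed. The direction of this list depended on scaling: without TMM, which moved the median of all genes to -0.39 and -0.33, its median was -0.14 and -0.08, that of the one-carbon list -0.17 and 0.13, Hspa5 was at -0.08 and 0.23, Mthfd1 at 0.20 and 0.69 (adjusted p = 0.302 and 1.43e-04 from edgeR), Atf5 at -0.19 and 0.08, Aldh1l2 at -0.37 and -0.09, and Slc7a11 at 0.0021 and -0.0071, for EASCs and PASCs. The median of the regulators fell to 0.06 and 0.10, with 5 passing upward and 7 downward in EASCs and 6 and 6 in PASCs, where 13 and 6 had passed in both with TMM. The medians of the transporters, the synthetases, the eIF2 genes, and the proliferation genes kept their sign.

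Proliferation genes moved with the 10 genes. All 12 examined were upregulated DEGs in both comparisons, with median log2 fold changes of 2.19 in EASCs and 2.94 in PASCs, and their summed level ranged over 143 to 148 CPM for SASCs, 889 to 893 CPM for PASCs, and 553 to 580 CPM for EASCs. Plk1 (3.496 and 4.06), Ccnb1 (3.30 and 4.02), Cdk1 (2.88 and 3.34), and Top2a (2.31 and 3.26), which act in mitosis or chromosome separation, had the largest changes in PASCs. In EASCs, Mcm5 (2.64) and Ccna2 (2.36), of DNA replication and the cell cycle, exceeded Top2a, and were named after their values were seen. Between EASCs and PASCs, 11 of the 12 were lower in EASCs at any fold change, against 14.5% of all genes, with a median of -0.64, while that of the 10 genes was -0.07. The part of proliferation in the values of the 10 genes was not tested, and fat depot and proliferation cannot be told apart in these groups.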

How the data were processed

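RNA of 3 samples each of SASCs, PASCs, and EASCs was analysed. The authors removed adaptors with cutadapt and low-quality sequence with FastX-Toolkit, aligned paired-end reads with TopHat, and deposited read counts per gene, whole numbers that are not normalized. The methods name rn6, and the submitters' processing notes TopHat2 and rn5; the positions printed are those of the deposited table, whose contig names are those of rn6. The counting tool, the strand setting, and the treatment of duplicates and of reads matching several genes are not given in the sources used here.

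Counts were scaled by TMM (factors 0.740 to 1.23), filtered with filterByExpr, and tested with the quasi-likelihood F test of edgeR 4.0.16 in R 4.3.3, fitting the 9 samples together with no block; Benjamini-Hochberg adjustment covered 14770 genes. A DEG needed an adjusted p under 0.05 and more than a 2-fold change. The standard error was the log2 fold change divided by the root of F. RPKM used the deposited gene length. The fit was tested on simulated data. The simulation gave every gene the same dispersion and left out the differences in rRNA share between libraries. It therefore cannot show how the fit behaves on these libraries. Replicates differed by more than counting noise (chi-square per degree of freedom 6.06 to 273.6).

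The members, lists, and tests were chosen with earlier results of these data known. Named were the 10 genes, from each list at most 4 DEGs against SASCs with the largest change in either comparison, the partners Shmt1, Mthfd1, Mthfd1l, Aldh1l2, Slc7a11, Atf3, Atf5, Hspa5, and Eif2ak1 to Eif2ak4, and the 3 genes most like Phgdh and Atf4. Alternatives were DESeq2 1.42.0, scaling by total counts alone, rRNA genes taken out, no filter, a fit of just the 2 groups, a replicate block, limma 3.58.1 on log2(CPM + 1) and log2(CPM + 0.1), a fold change above 1.5, and leaving out each replicate. Metabolite data were not analysed here.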

Additional observations from a re-analysis of the deposited data

How the results depend on the processing

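The counts of 9 DEGs in EASCs and 8 in PASCs among the 10 genes, and of 0 downregulated DEGs in both, stayed within 1.5 times under every alternative run. The replicate number as a block gave 9, 8, and, between EASCs and PASCs, 0. The sample numbers were not found to pair the samples: deviations of same-numbered samples from their group means had correlations of -0.03 to 0.07 across genes. Total counts without TMM gave 7 DEGs in EASCs, without Asns (log2 fold change 0.96) and Ddit3 (0.75), and 8 in PASCs. This scaling moved the median of all genes to -0.39 and -0.33 and gave 4775 and 4431 DEGs of either direction among all genes. A fold change above 1.5 gave 10 and 10, for which the share of all genes was not computed. Leaving out any 1 replicate left the counts at 9 and 8. Against SASCs, the log2 fold changes of the 10 genes kept their direction and their side of the adjusted threshold in all 170 alternative values in EASCs and all 170 in PASCs. Between EASCs and PASCs 12 values no longer passed and 1 newly passed, that of Chac1 when just these 2 groups were fitted (-0.18, edgeR adjusted p = 0.0461). Chac1 moved most with a single library: without SASCs replicate 1 its log2 fold change was 2.67 in EASCs and 2.86 in PASCs. The limit of depth, 3 counts, lies far below the 115 counts of the lowest value of the 10 genes.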
